A study of Jatropha curcas with 22 samples.

Results

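Leaves of continuously watered Jatropha curcas, the oil-seed shrub known as physic nut, were compared between day 49-52 and day 13 of a greenhouse drought trial, with no drought treatment in either group. Every gene model with at least 10 reads in at least 2 of the 4 libraries was included, which gave 21907 of the 57437 gene models in the deposited table. The rule used read depth and not the direction of any difference.

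The trial used plants of an accession from the Cape Verde islands, grown in 7.5-litre pots under natural photoperiod, with water withheld from 36-day-old seedlings in the drought arm. The series holds 22 libraries in 11 groups of 2, from leaf and root, and all its leaf groups took young leaves of at most 2 cm cut at the shoot tip. The day 13 group is made of watered leaves pooled from 3 plants, and the day 49-52 group is a joint watered sample of days 49 and 52, for which the labels do not say how many plants were pooled. Whether the 2 libraries of a group came from separate plants is not given either, so each p-value sets a difference against the spread of such library pairs, and that spread may be technical only. Plant age and calendar date with its day length differ together between the groups, and they cannot be told apart. No source used here gives the hour of harvest.

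A small leaf at the shoot tip is a mixture of dividing, expanding and early photosynthetic cells. Its messenger RNA follows the growth stage of the plant, the circadian clock, which times starch turnover and responds to day length, and defence programmes such as jasmonate signalling. In that pathway lipoxygenases and allene oxide enzymes make jasmonate from plastid lipids, methyltransferases turn it into methyl jasmonate, and JAZ (jasmonate ZIM-domain) proteins hold back its target genes. Jatropha belongs to the spurge family and is known for its latex, for diterpenes built from casbene and for curcin, a ribosome-inactivating protein.

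The 4 libraries held 43690939 and 42099265 reads at day 13 and 47662831 and 41911089 reads at day 49-52. Replicates correlated at r = 0.988 at day 13 and r = 0.983 at day 49-52 across genes, on log2 CPM, the reads of a gene scaled to a common library total. Both differed beyond counting noise, so no library was a copy of another. Genes of the photosystems and the small Rubisco subunit used as mesophyll markers summed to 19462 and 19628 CPM at day 13 and to 17383 and 23645 CPM at day 49-52, against 115 to 272 CPM in the 4 watered root libraries, as the leaf label requires. All 7 groups of marker genes are given here as sums over the members that passed the depth rule. Xylem markers (31 of 52 members) summed to 1503 and 1440 CPM, then to 1797 and 1296 CPM. Phloem markers (6 of 6) summed to 93.4 and 105 CPM, then to 124 and 87.8 CPM, and the 1 tested guard cell marker of 2 stood at 100.3 and 98.4 CPM, then at 78.6 and 70.9 CPM. Markers of root (4 of 7) summed to 316 and 309 CPM, then to 299 and 286 CPM, beside 305 to 386 CPM in the watered roots, so these few genes did not separate the organs. Flower and seed markers (11 of 32, with 10 at 0 reads in all 4 libraries) summed to 142 and 118 CPM, then to 130 and 139.6 CPM. The latex list (12 of 18) was the only one of the 7 with called genes, 2 of them, both higher, beside 0.338% of all tested genes. Its members went both ways, with 8 above 0 and 4 below. It summed to 2306 and 2025 CPM, then to 2089.8 and 4062 CPM, so the higher late sum rested on replicate 2. In a bulk sample, fewer cells of a type and less RNA per cell cannot be told apart.

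Few genes differed. With edgeR's quasi-likelihood test and Benjamini-Hochberg adjustment over all 21907 genes, 203 genes (0.927%) passed an adjusted p of 0.05. Of these, 74 (0.338%) were higher and 129 (0.589%) were lower at day 49-52, while the median log2 change of all tested genes was -0.01. Called counts of every gene list below are to be read beside these shares. The genes that rose had a median change of 2.20-fold and those that fell a median of 1.88-fold. Among the risers 47 changed at least 2-fold, and among those that fell 57 did. In all 203 the 2 libraries of one group lay beyond both libraries of the other, which a call largely requires. Of all tested genes, 20.7% lay apart with the late libraries higher and 23.8% with them lower. An unadjusted p under 0.05 was found for 4311 genes, far more than were called.

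The number of calls turned on the test and on single libraries. DESeq2 called 765 genes higher and 809 lower, among them 200 of the 203. A fit on the 4 libraries alone, with no spread borrowed from the other leaf groups, called 0 genes with edgeR, although 2535 had an unadjusted p under 0.05. Leaving out day 13 replicate 1 gave 36 higher and 141 lower, and leaving out day 13 replicate 2 gave 7 and 25. Without day 49-52 replicate 1 there were 589 higher and 217 lower, and without day 49-52 replicate 2 there were 6 and 30. The excess of lower over higher calls also turned on the setting: with no filter on low counts there were 149 higher and 146 lower, and limma on the deposited values, as log2(RPKM + 1), gave 132 and 126. No called gene changed sign under any setting, but where the 2 groups do not overlap this is largely fixed in advance. Of the 203 genes, 6 were called in all 4 of the fits that left out a library. Among the genes named below these were both ornithine decarboxylase-like genes, Jcr4S08030.10 of the jasmonate group, the DNA-binding gene Jcr4S00270.20 and the undescribed gene Jcr4S11639.10. Every other called gene named below lost its call in at least 1 of the 4 fits.

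**Figure D1:**
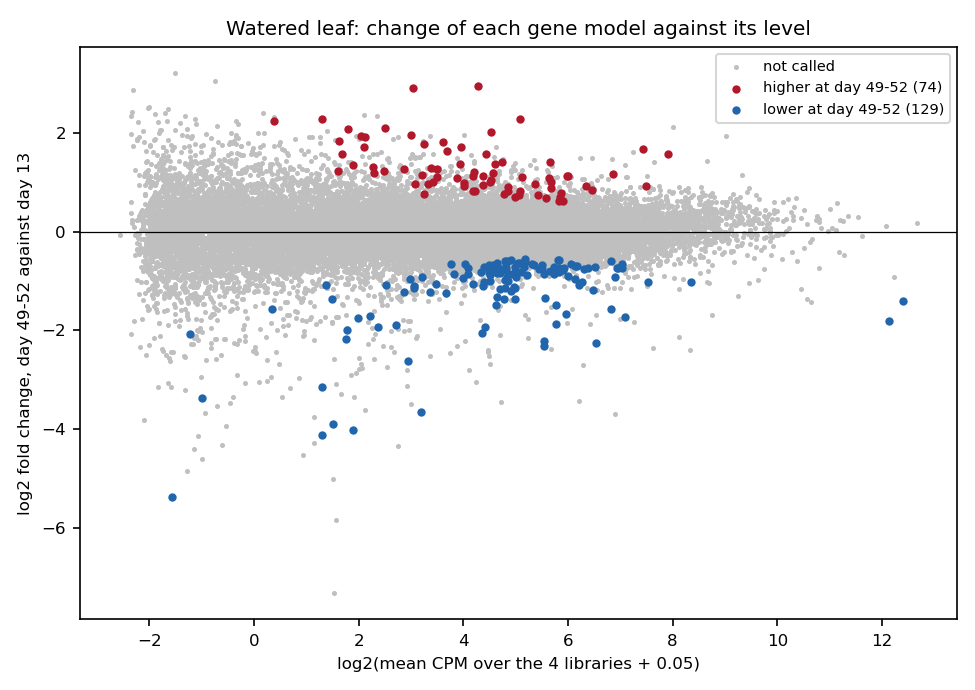
Log2 fold change at day 49-52 against day 13 (vertical axis) for 21907 gene models, against log2 of their mean CPM over the 4 libraries plus 0.05 (horizontal axis). The 74 genes called higher (red) and 129 called lower (blue) lie across the whole range of levels above the lowest.

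**Figure D2:**
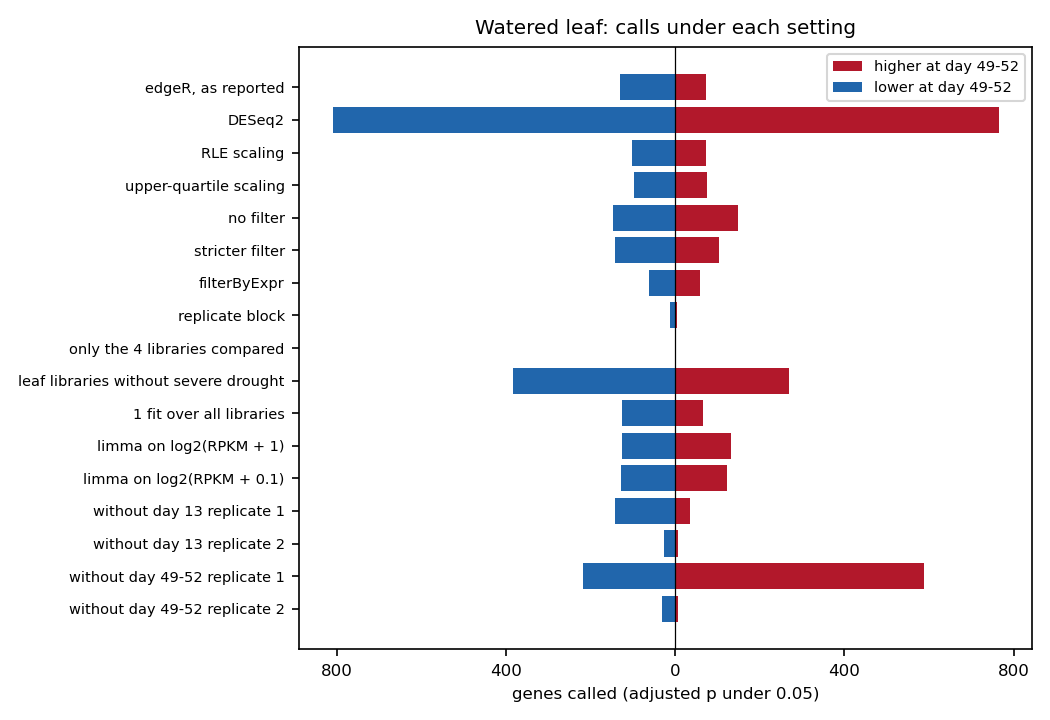
Number of genes called higher (red, to the right) and lower (blue, to the left) at day 49-52 under the reported test and each of 16 other settings. The fit on the 4 libraries alone has no bar, DESeq2 has 765 and 809, and leaving out 1 library moves the counts in both directions.

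Falls that held in every fit leaving out a library included 2 genes for ornithine decarboxylase-like proteins, the enzyme type that makes putrescine, the first polyamine. Jcr4S04145.10 stood at 166 and 141 CPM at day 13 and at 31.5 and 33.1 CPM at day 49-52, a log2 change of -2.25 ± 0.21 (SE, adjusted p = 0.00586). Its relative Jcr4S08812.10 fell from 13.9 and 12.4 to 1.89 and 2.40 CPM, by 2.61 ± 0.28 on the log2 scale (adjusted p = 0.0108). At day 0 the first gene had been at 15.5 and 19.4 CPM and the second at 0.792 and 1.42 CPM, so the day 13 leaves held the high values for both. A gene at the other end of polyamine turnover, polyamine oxidase 5 (Jcr4S00799.40, chosen after its values were seen), rose from 61.7 and 63.6 to 113 CPM in both late libraries, a log2 change of 0.85 ± 0.15 (adjusted p = 0.0409). The 2 neighbouring gene models described only as "mta sah" were, counted in CPM and not per length, the most abundant of all called genes. Jcr4S09196.10 fell from 7133 and 6930.3 to 2244 and 1742 CPM (log2 change -1.82 ± 0.33, adjusted p = 0.0409). Jcr4S09196.20 fell from 7844 and 7975 to 3495 and 2449 CPM (log2 change -1.41 ± 0.24, adjusted p = 0.0385). Both had been below 1700 CPM at day 0, at 813 and 1173 CPM and at 1369 and 1664 CPM, so their late levels lay between the earlier samplings. Reads of near-identical copies can be split between such gene models, and no source used here gives the counting rule.

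Genes of lipoxygenase and jasmonate held 4 of the called genes, as many as the larger auxin list and more than any other. Of 36 tested, 0 rose and 4 fell, beside 0.338% and 0.589% of all tested genes, with a median log2 change of -0.33. Among the 36, both late libraries lay below both early ones in 20 and above in 3, beside 23.8% and 20.7% of all tested genes. Of the called members, 3 carry a description that stops at "jasmonate o-", a form of words that fits the methyltransferases of jasmonate. The strongest of them, Jcr4S08030.10, stood at 73.5 and 80.6 CPM at day 13 and at 15.9 and 17.2 CPM at day 49-52 (log2 change -2.22 ± 0.20, adjusted p = 0.00586). It was at 25.7 and 26.2 CPM at day 0. The second, Jcr4S11744.10, fell from 0.842 and 0.814 to 0.0842 and 0.0707 CPM (log2 change -3.37 ± 0.49, adjusted p = 0.0333), and the third, Jcr4S14524.10, from 4.62 and 4.05 to 0.800 and 0.165 CPM (adjusted p = 0.0387). The fourth called member encodes a JAZ repressor. This gene, Jcr4S01186.90, fell from 184 and 238 to 81.5 and 44.6 CPM (log2 change -1.74 ± 0.26, adjusted p = 0.0317), after 43.1 and 40.2 CPM at day 0.

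Enzymes that make jasmonate and another JAZ gene had lower values that did not pass the test, and these 4 genes were chosen after their values were seen. Lipoxygenase lox1 (Jcr4S01832.40) was at 391 and 267 CPM at day 13 and at 90.3 and 38.8 CPM at day 49-52 (log2 change -2.35 ± 0.71, adjusted p = 0.118), with 9.45 and 15.1 CPM at day 0. The allene oxide gene Jcr4S02848.50 was at 216 and 186 CPM, then at 133 and 81.3 CPM (adjusted p = 0.0674). A second JAZ gene, Jcr4S05450.40, was at 580.4 and 541 CPM, then at 341 and 202 CPM (adjusted p = 0.0665). Latex allene oxide synthase (Jcr4S05038.20) was at 241 and 258 CPM, then at 183 and 91.8 CPM (adjusted p = 0.124). In all 4 the groups did not overlap, and the late libraries differed from each other by more than the early ones did as a ratio.

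Defensive proteins of the leaf showed a wide spread. Of 23 tested protease inhibitor and curcin genes, 1 rose and 0 fell, although the median log2 change was -1.13 and both late libraries lay below both early ones in 14, beside 23.8% of all tested genes. Protease inhibitors block the digestive enzymes of insects, and jasmonate induces many of them in other plants. The spread between the late libraries was large: proteinase inhibitor Jcr4S12693.10 was at 43.3 and 35.6 CPM at day 13 and at 9.73 and 2.54 CPM at day 49-52 (log2 change -2.68 ± 0.93, adjusted p = 0.162). A serine protease inhibitor, Jcr4S01720.10, was at 13.6 and 11.9 CPM, then at 1.16 and 0.0707 CPM (adjusted p = 0.0525). Curcin itself (Jcr4S01069.20) was at 207 and 146 CPM, then at 57.9 and 103 CPM (log2 change -1.13 ± 0.28, adjusted p = 0.0755). The curcin-L precursor (Jcr4S12813.10) was at 1246.9 and 849 CPM, then at 347 and 722 CPM (adjusted p = 0.143). These 4 were chosen after their values were seen. The called member, the alpha-amylase/subtilisin inhibitor Jcr4S01589.10, went the other way, from 9.20 and 12.6 to 31.4 and 33.6 CPM (log2 change 1.58 ± 0.26, adjusted p = 0.0350). Among 34 pathogenesis-related and chitinase genes none was called by edgeR, and the smallest p belonged to the PR-4b gene Jcr4S17307.10, at 1.89 and 1.30 CPM, then at 4.44 and 7.68 CPM (adjusted p = 0.0567).

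Terpene synthases, which build the scent compounds and diterpenes of the leaf, had the lowest median of the 49 lists. Of 73 genes in the list 20 passed the depth rule, and 27 had 0 reads in all 4 libraries. Of the 20 tested genes 0 were called by edgeR, but the median log2 change was -1.60 and 19 were below 0. Both late libraries lay below both early ones in 16, beside 23.8% of all tested genes. In any list the depth rule can be met through 1 group alone, so rare genes can enter by a high day 13 level. The part of this in the median was not tested. Summed over the list, the genes gave 271 and 329 CPM at day 13 and 194 and 188 CPM at day 49-52, beside 159 and 154 CPM at day 0. Terpene synthase 3 (Jcr4S00757.40) had the smallest p, with 63.8 and 95 CPM, then 46.0 and 39.5 CPM (log2 change -0.89 ± 0.18, adjusted p = 0.0525). A delta-cadinene synthase (Jcr4S11217.10) was at 4.17 and 5.09 CPM, then at 1.26 and 1.53 CPM (adjusted p = 0.0561). Casbene synthase genes were hardly present in leaf, and Jcr4S03853.10 was above 1 CPM only in day 13 replicate 2, at 2.37 CPM against 0.410 CPM in replicate 1, with 0.337 and 0.259 CPM late. Both genes were chosen after their values were seen. A gene of monoterpene synthesis outside the list's wording, described as myrcene-like (Jcr4S01030.10), was chosen likewise and fell, from 67.6 CPM in both early libraries to 24.1 and 29.0 CPM (log2 change -1.35 ± 0.17, adjusted p = 0.0260). It was at 26.0 and 30.1 CPM at day 0. Anthocyanin acyltransferases, described as "anthocyanin 5-aromatic", supplied both called members of the flavonoid list, in which 0 of 84 rose and 2 fell with a median of 0.04. Jcr4S00499.70 fell from 36.8 and 50.0 to 18.8 and 20.8 CPM (adjusted p = 0.0409), and Jcr4S05289.30 from 27.6 and 44.1 to 16.0 and 16.2 CPM (adjusted p = 0.0482).

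**Figure D3:**
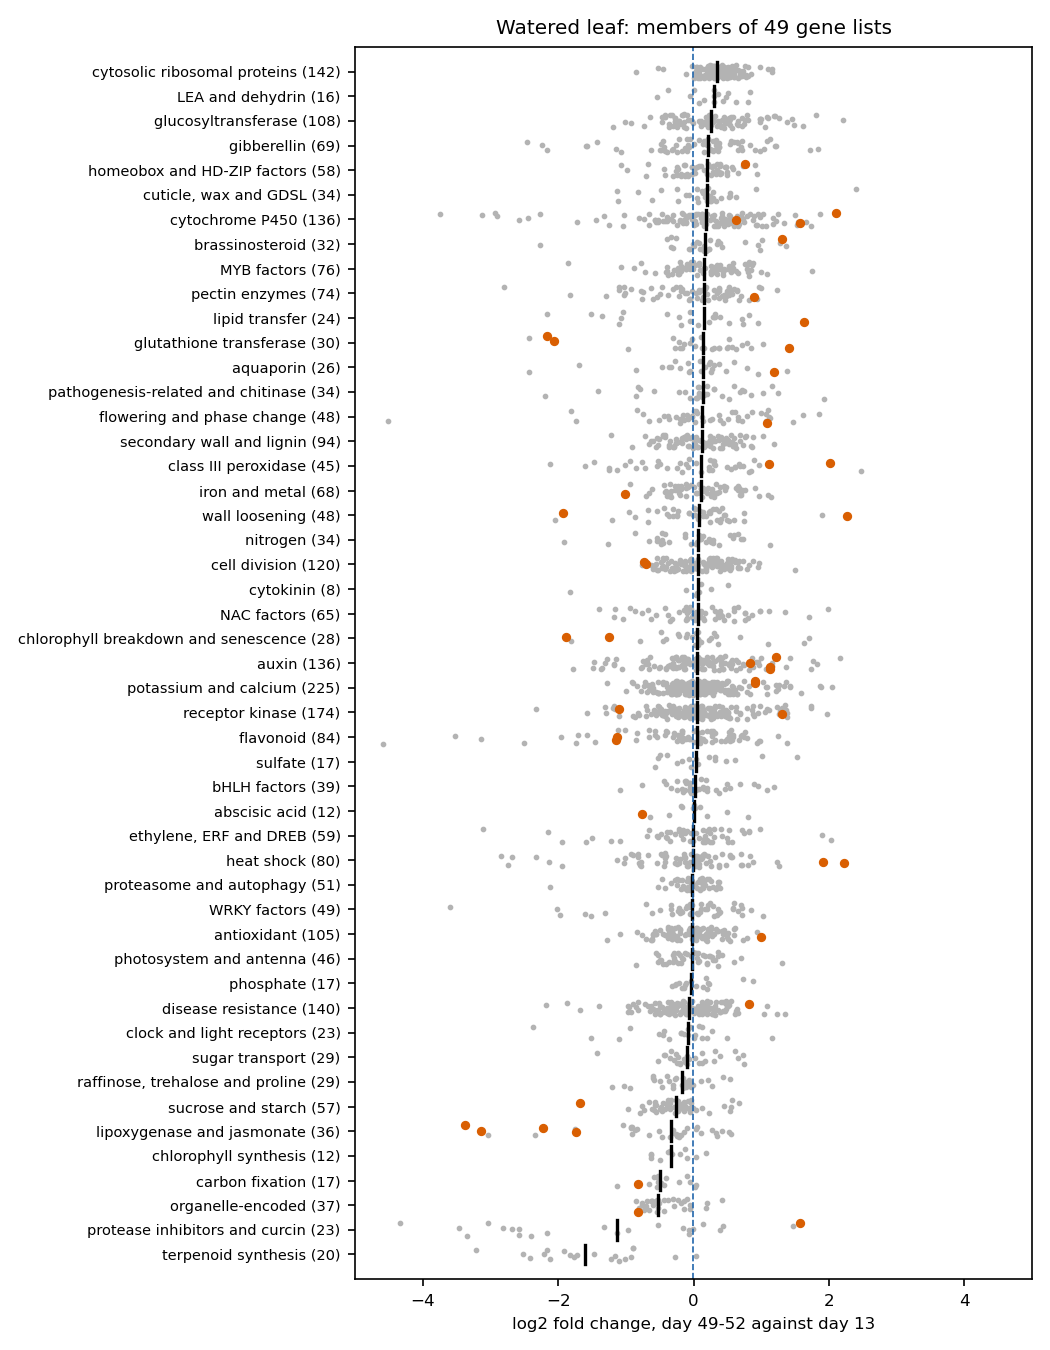
Log2 fold change at day 49-52 against day 13 for each tested member of 49 gene lists (points, with the number of members in brackets), called genes in orange, list medians as black bars and the median of all 21907 genes as the dashed line. Terpenoid synthesis has the lowest median, -1.60, and cytosolic ribosomal proteins the highest, 0.35.

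A neutral invertase and several genes of starch breakdown fell. Of 57 genes in the sucrose and starch list 0 rose and 1 fell, with a median log2 change of -0.25, 49 members below 0 and both late libraries below both early ones in 32, beside 23.8% of all tested genes. The summed level of the list was not lower, at 5123 and 5299 CPM at day 13 and at 5741 and 4728 CPM at day 49-52. The called member, neutral/alkaline invertase Jcr4S00014.20, which splits sucrose in the cell, fell from 67.8 and 123 to 29.4 and 30.3 CPM (log2 change -1.68 ± 0.25, adjusted p = 0.0317). Alpha-glucan phosphorylase (Jcr4S01247.10), which shortens starch-derived glucans and was the third most abundant called gene in CPM, fell from 477 and 401 to 230.3 and 205 CPM (log2 change -1.01 ± 0.16, adjusted p = 0.0350). At day 0 it had been at 133 and 138.8 CPM. A further 3 genes of starch breakdown and 1 of sucrose synthesis, which the list's wording does not cover, were noticed after their values were seen. Disproportionating enzyme 2 (Jcr4S07600.20), which handles maltose from starch in the cytosol, fell from 42.8 and 34 to 17.2 and 17.4 CPM (log2 change -1.15 ± 0.18, adjusted p = 0.0350). The 4-alpha-glucanotransferase gene Jcr4S16140.10 fell from 51.4 and 39.5 to 20.9 and 14.6 CPM (adjusted p = 0.0394), and the phosphoglucan phosphatase gene Jcr4S16434.10, whose product removes phosphate from starch, fell from 7.90 and 7.70 to 3.39 and 3.93 CPM (adjusted p = 0.0446). Sucrose-6-phosphate phosphatase (Jcr4S00505.30), the last step of sucrose synthesis, fell from 40.2 and 44.1 to 20.5 and 23.9 CPM (log2 change -0.92 ± 0.14, adjusted p = 0.0333). Each of these 4 was close to its late level at day 0, for example 18.2 and 15.6 CPM for disproportionating enzyme 2. Beta-amylase 5 (Jcr4S02153.30, chosen likewise), an enzyme that frees maltose, was at 118 and 95.9 CPM, then at 66.1 and 77.2 CPM, and did not pass (adjusted p = 0.118). An inhibitor of vacuolar invertase (Jcr4S04028.40, also chosen after its values were seen) rose from 11.7 and 10.7 to 27.7 and 23.5 CPM (log2 change 1.19 ± 0.17, adjusted p = 0.0317).

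Values of clock genes are given beside those of starch, since starch turnover follows the clock, and their part in the starch result was not tested. Of 23 genes for clock components and light receptors 0 were called by edgeR, with a median log2 change of -0.08. The smallest p was that of the phytochrome kinase substrate gene Jcr4S05272.50, at 4.96 and 5.74 CPM, then at 14.5 and 9.31 CPM (log2 change 1.15 ± 0.23, adjusted p = 0.0501). GIGANTEA (Jcr4S00109.60), an afternoon clock gene in Arabidopsis, was at 92.0 and 106 CPM at day 0, at 394 and 292 CPM at day 13 and at 205 and 154 CPM at day 49-52 (late against day 13, adjusted p = 0.0658). Its partner FKF1 (Jcr4S03391.30), a blue-light receptor of the photoperiod pathway, was at 2.83 and 3.34 CPM, then at 134.6 and 36.8 CPM, then at 21.1 and 11.9 CPM (adjusted p = 0.0775). Pseudo-response regulator 5 (Jcr4S06170.10) was at 4.19 and 3.90 CPM, then at 123 and 28.9 CPM, then at 32.0 and 20.9 CPM (adjusted p = 0.202). For FKF1 and pseudo-response regulator 5 the day 13 libraries differed from each other by more than the late libraries did. These 3 were chosen after their values were seen.

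**Figure D4:**
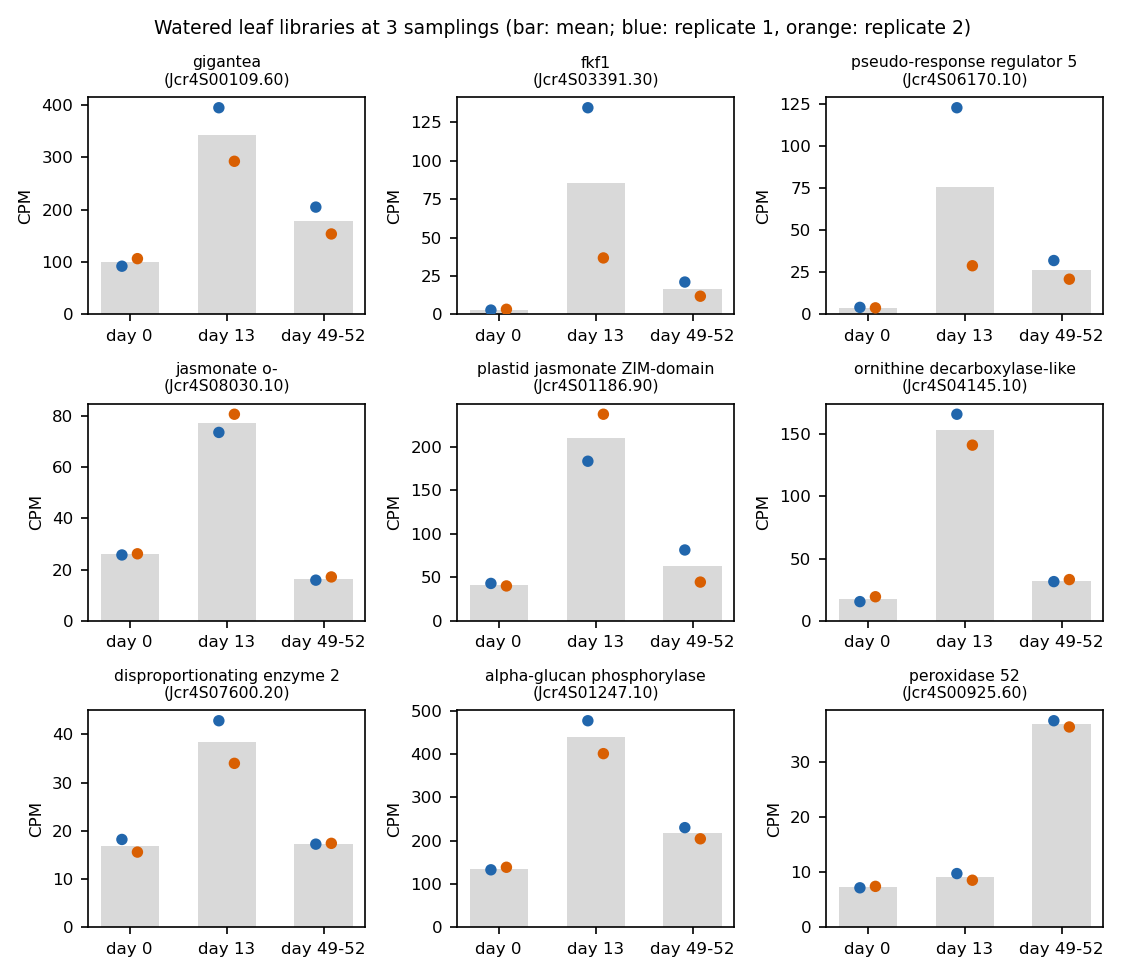
CPM of 9 genes in the watered leaf libraries of day 0, day 13 and day 49-52 (bars, mean of 2 libraries; blue and orange points, replicates 1 and 2). Of the 9, all except peroxidase 52 are highest at day 13, and the 2 day 13 points stand far apart for fkf1 and pseudo-response regulator 5.

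Genes for plastid functions gave few calls. In the carbon fixation list 0 of 17 rose and 1 fell, with a median log2 change of -0.49 and 11 members with both late libraries below both early ones, beside 23.8% of all tested genes. The called member is annotated as a protein linked to the Rubisco large subunit (Jcr4S13825.20) and fell from 38.9 and 41.7 to 21.9 and 23.7 CPM (log2 change -0.82 ± 0.14, adjusted p = 0.0409). Its description holds a word cut to "n-" after "large subunit", so it need not be the subunit itself or organelle-encoded. That wording alone also put it in the organelle-encoded list as the only called gene, where 0 of 37 rose, 1 fell and the median was -0.53. There the late libraries were unequal, with list sums of 376 and 234 CPM against 404 and 505.1 CPM at day 13. Phosphoribulokinase (Jcr4S21842.20, chosen after its values were seen), an enzyme of the Calvin cycle, was at 251 and 242 CPM, then at 152 and 189 CPM, without passing the test (adjusted p = 0.183). Photosystem and antenna genes gave 0 calls among 46, with a median of -0.03, 22 members above 0 and 24 below. The smallest p there, for a chlorophyll a/b binding gene (Jcr4S00002.180), went with 28.1 and 29.6 CPM, then 18.4 and 25.1 CPM (adjusted p = 0.242).

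Among genes of chlorophyll metabolism, the calls in the lists were for chlorophyllases. Of 12 chlorophyll synthesis genes 0 were called, with a median log2 change of -0.33 and 8 members with both late libraries lower, beside 23.8% of all tested genes. Uroporphyrinogen-III synthase (Jcr4S04617.20), an early step of the pathway, had the smallest p, with 30.6 and 32.1 CPM, then 21.9 and 18.5 CPM (log2 change -0.63 ± 0.15, adjusted p = 0.0651). Of 28 genes of chlorophyll breakdown and senescence 0 rose and 2 fell, against a median of 0.05, and both that fell encode chlorophyllases, which cut the tail off chlorophyll. Jcr4S00824.60 fell from 7.17 and 13.3 to 2.32 and 3.20 CPM (log2 change -1.89 ± 0.30, adjusted p = 0.0350), and Jcr4S00672.40 from 21 and 14.7 to 8.53 and 6.46 CPM (log2 change -1.25 ± 0.24, adjusted p = 0.0451). Outside the lists, and chosen after their values were seen, 2 genes of pigment synthesis and 3 other plastid-related genes fell. Bacteriochlorophyll synthase (Jcr4S00228.60) fell from 27.0 and 25.5 to 14.9 and 17.1 CPM (adjusted p = 0.0471). The protoporphyrinogen gene Jcr4S01162.50 fell from 29.3 and 31.1 to 19.7 and 19.2 CPM (adjusted p = 0.0409). An NDH-dependent cyclic electron flow gene (Jcr4S00458.130) fell from 42.9 and 35.9 to 11.9 and 18.7 CPM (adjusted p = 0.0336). An RNA polymerase sigma factor (Jcr4S02875.10), of the kind that directs plastid transcription, fell from 72.4 and 72.6 to 39.7 and 42.8 CPM (adjusted p = 0.0409), and a SecY translocase gene (Jcr4S07089.40) from 72.7 and 64.7 to 42.9 and 33.1 CPM (adjusted p = 0.0385).

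A few cell cycle genes fell, in a list that went both ways, while ribosomal protein genes stood higher as a body. Of 120 cell division genes 65 were above 0 and 55 below. Both late libraries lay above both early ones in 27 and below in 33, beside 20.7% and 23.8% of all tested genes. Of the 120, 0 rose and 2 fell, beside 0.338% and 0.589% of all tested genes, with a median log2 change of 0.06. Both are cyclins, which drive the steps of the cell cycle: Jcr4S01214.80 fell from 144 and 162 to 86.5 and 97.4 CPM (adjusted p = 0.0409), and Jcr4S06246.10 from 90.7 and 87.2 to 48.0 and 61.0 CPM (adjusted p = 0.0438). The ccs52b gene (Jcr4S00081.40, chosen after its values were seen), an activator of the complex that removes mitotic cyclins, fell from 122 and 126 to 54.0 and 55.2 CPM (log2 change -1.18 ± 0.14, adjusted p = 0.0217). A gene described only as cell division (Jcr4S00139.130, also chosen so) fell from 44.0 and 41.9 to 21.2 and 18.4 CPM (adjusted p = 0.0267). A spindle checkpoint gene (Jcr4S00002.150, also chosen so) fell from 77.9 and 88.9 to 45.2 and 44.6 CPM (adjusted p = 0.0317). Of 142 cytosolic ribosomal protein genes 0 were called by edgeR, but 137 were above 0, with a median of 0.35, and in 100 both late libraries lay above both early ones, beside 20.7% of all genes. Their sum was 37667 and 36071 CPM at day 13 and 42500 and 51308 CPM at day 49-52, below the 64784 and 58082 CPM of day 0. The smallest p was that of the ubiquitin-S27a fusion gene Jcr4S02833.30, at 231 and 187 CPM, then at 339 and 388 CPM (log2 change 0.80 ± 0.17, adjusted p = 0.0561). A gene for biogenesis of the large ribosomal subunit (Jcr4S02910.20, chosen after its values were seen) rose from 42.7 and 36.9 to 74.7 and 99.5 CPM (adjusted p = 0.0495).

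The largest rise among described called genes was that of a rhicadhesin receptor gene (Jcr4S04808.20), a germin-type cell wall protein named for a bacterial attachment factor. It rose from 1.98 and 1.86 to 11.2 and 17.6 CPM, a log2 change of 2.90 ± 0.35 (adjusted p = 0.0217), after 1.72 and 1.40 CPM at day 0. A second germin-like gene (Jcr4S03500.20) rose from 1.62 and 2.37 to 6.74 and 6.31 CPM (log2 change 1.71 ± 0.25, adjusted p = 0.0317). A pair of class III peroxidases, secreted enzymes that cross-link wall polymers, also rose, beside 0.338% of all tested genes. They were the only called members among 45, with a list median of 0.10. Of the 45, 24 were above 0 and 21 below, with the libraries of the groups apart in 16 each way. Peroxidase 52 (Jcr4S00925.60) rose from 9.79 and 8.58 to 37.6 and 36.4 CPM (log2 change 2.01 ± 0.27, adjusted p = 0.0267), and peroxidase 12 (Jcr4S06050.30) from 25.5 and 18.7 to 44.9 and 50.7 CPM (log2 change 1.11 ± 0.20, adjusted p = 0.0409). Peroxidase 52 had been at 7.20 and 7.46 CPM at day 0, so its high values were found late.

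Wall remodelling genes split, with calls to be read beside 0.338% of all tested genes called higher and 0.589% called lower. Among 48 wall loosening genes 1 rose and 1 fell, with a median log2 change of 0.08, and both encode xyloglucan endotransglucosylases, which cut and rejoin the chains between cellulose fibrils. Protein 33 (Jcr4S01936.90) rose from 15.1 and 8.09 to 44.8 and 67.1 CPM (log2 change 2.27 ± 0.40, adjusted p = 0.0409), while protein 2 (Jcr4S09899.10) fell from 8.36 and 7.84 to 2.08 and 2.14 CPM (log2 change -1.94 ± 0.37, adjusted p = 0.0447). Of 74 pectin genes 1 rose and 0 fell, with a median of 0.15: a pectinesterase inhibitor (Jcr4S05937.20) went from 22.1 and 18.4 to 39.3 and 36.1 CPM (log2 change 0.90 ± 0.15, adjusted p = 0.0372). The secondary wall and lignin list gave 0 calls among 94, with a median of 0.13, and its smallest p went to a cellulose synthase-like gene (Jcr4S00768.80) at 33.3 and 28.2 CPM, then at 49.8 and 45.4 CPM (adjusted p = 0.0567).

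A pair of genes described as major latex proteins, a family first named from poppy latex, rose together with 2 patatin genes. Jcr4S02756.20 rose from 64.3 and 101.4 to 188 and 339 CPM (log2 change 1.67 ± 0.32, adjusted p = 0.0465). Jcr4S03901.50 rose from 133 and 109 to 261 and 457 CPM (log2 change 1.57 ± 0.26, adjusted p = 0.0350). For both genes replicate 2 of day 49-52 held the higher value. The latex list sum was also higher there, but it is not a separate observation, since no other called riser has latex wording. The patatin t5 genes, of a family of lipid acyl hydrolases, were Jcr4S01234.10, which rose from 1.37 and 1.30 to 4.63 and 4.81 CPM (adjusted p = 0.0409), and Jcr4S00574.100, from 55.4 and 56.9 to 103 and 110.3 CPM (adjusted p = 0.0409). Jcr4S03901.50 and both patatin genes were chosen after their values were seen.

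Other described genes with large rises had mixed roles. A lipid-transfer type gene (Jcr4S00065.160), the only called one of 24 in the lipid transfer list (median 0.15), rose from 7.72 and 4.79 to 22 and 16.5 CPM (adjusted p = 0.0385). A tetraspanin (Jcr4S01195.10), a membrane-organising protein, rose from 5.17 and 3.35 to 12.1 and 17 CPM (adjusted p = 0.0350). The remaining 3 of the 12 largest rises were an alcohol dehydrogenase family gene (Jcr4S06463.10), from 1.68 and 1.70 to 5.77 and 7.09 CPM (adjusted p = 0.0363), a gene described only as serine-threonine protein (Jcr4S16320.10), from 6.81 and 4.02 to 19.6 and 18.2 CPM (adjusted p = 0.0447), and 1 described only as catalytic (Jcr4S14014.20), from 1.09 and 1.53 to 5.45 and 5.68 CPM (adjusted p = 0.0317). The largest rise of any called gene belonged to a gene model with no description, chosen after its values were seen. Jcr4S11639.10 stood at 1.13 and 1.51 CPM at day 0, at 5.31 and 3.65 CPM at day 13 and at 32.7 and 36.2 CPM at day 49-52 (log2 change 2.94 ± 0.26, adjusted p = 0.00586). In severely droughted leaf of day 49 it stood at 479 and 694 CPM, and in rewatered leaf of day 52 at 84.8 and 109.8 CPM.

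**Figure D5:**
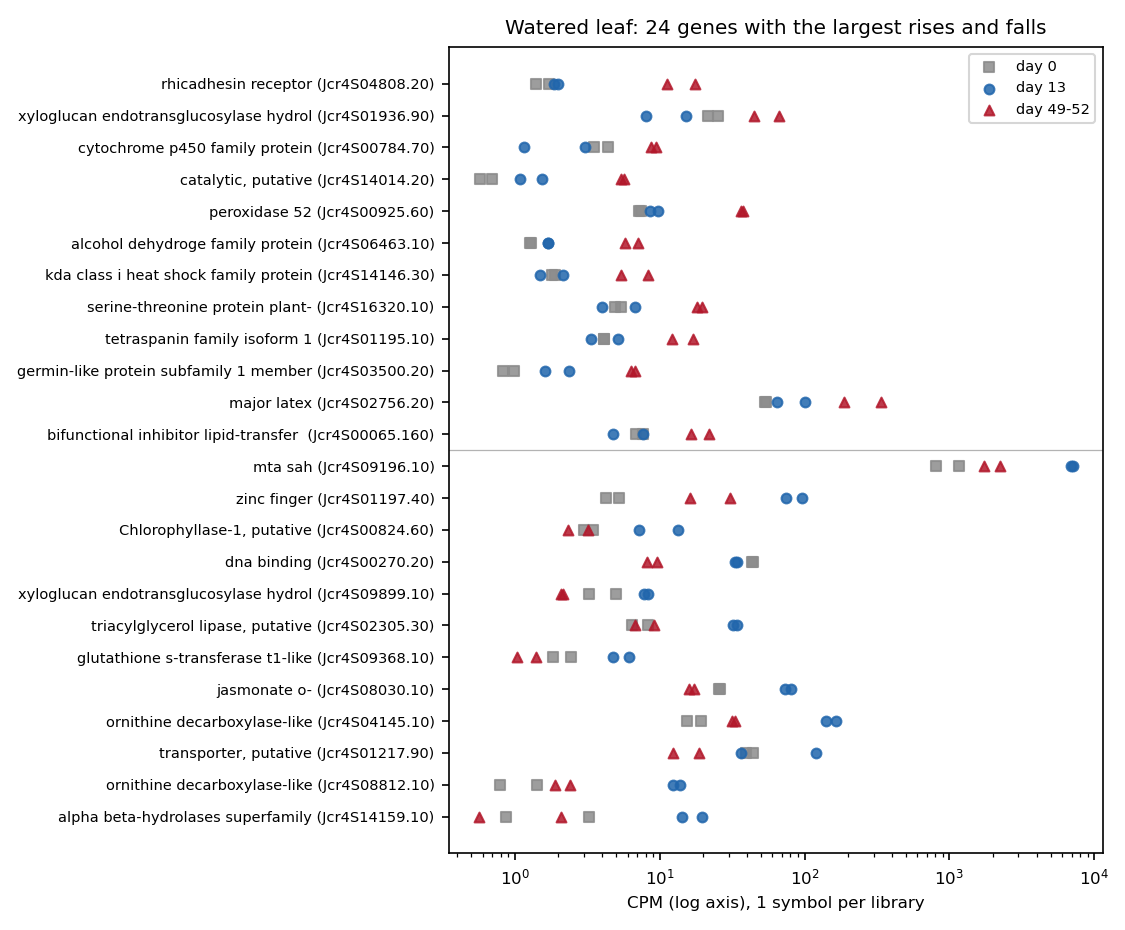
CPM on a log axis in each watered leaf library of day 0 (grey squares), day 13 (blue circles) and day 49-52 (red triangles). Shown are the 12 described called genes of at least 5 CPM with the largest rises (above the line) and the 12 with the largest falls (below it). Only genes whose day 13 and day 49-52 libraries lie apart could be chosen, so blue and red symbols are separate by that rule. For both ornithine decarboxylase-like genes the grey squares lie below the red triangles.

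The falls outside the groups above were as varied. A DNA-binding gene (Jcr4S00270.20) fell from 33.4 and 34.4 to 9.52 and 8.22 CPM (log2 change -1.93 ± 0.20, adjusted p = 0.00951), after 43.5 and 44.1 CPM at day 0. A triacylglycerol lipase gene (Jcr4S02305.30), for release of fatty acids from stored fat, fell from 34.2 and 32.1 to 9.16 and 6.71 CPM (log2 change -2.06 ± 0.26, adjusted p = 0.0248). An alpha/beta-hydrolase (Jcr4S14159.10) fell from 19.6 and 14.3 to 2.08 and 0.565 CPM (log2 change -3.66 ± 0.71, adjusted p = 0.0495), the largest fall among described called genes of at least 5 CPM. A putative transporter (Jcr4S01217.90) fell from 36.2 and 119 to 12.3 and 18.7 CPM (adjusted p = 0.0447), with early libraries far apart. A zinc finger gene (Jcr4S01197.40) went from 75.0 and 95.9 to 30.8 and 16.3 CPM (adjusted p = 0.0462), still above its day 0 level of 5.26 and 4.25 CPM.

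Genes tied to flowering moved in both directions. Of 48 tested genes of flowering and phase change 1 rose and 0 fell, with a median log2 change of 0.13. Of all tested genes 0.338% rose and 0.589% fell. The riser is described as MADS box (Jcr4S12299.10), a family of transcription factors with many floral regulators, and went from 26.8 and 37.1 to 58.8 and 77.0 CPM (log2 change 1.09 ± 0.18, adjusted p = 0.0350). A gene described as short vegetative phase (Jcr4S04629.10), named for a MADS repressor of flowering in Arabidopsis, rose from 3.37 and 3.30 to 7.69 and 7.99 CPM (log2 change 1.23 ± 0.21, adjusted p = 0.0381). A floral homeotic gene (Jcr4S00717.90) fell from 21.3 and 20.6 to 10.9 and 11.0 CPM (log2 change -0.94 ± 0.14, adjusted p = 0.0317). A CCT motif gene (Jcr4S07344.20), of the domain that CONSTANS carries, rose from 2.28 and 1.86 to 4.57 and 5.89 CPM (log2 change 1.34 ± 0.24, adjusted p = 0.0409). The last 3 lie outside the list's wording and were chosen after their values were seen. A constans-like gene (Jcr4S15774.10, chosen likewise) was at 6.85 CPM in day 13 replicate 1 and at 0.349 CPM in replicate 2, then at 0.147 and 0.165 CPM (adjusted p = 0.0757), so its difference rested on 1 library.

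Hormone lists other than jasmonate held 6 called genes. Their shares are to be read beside 0.338% of all tested genes called higher and 0.589% called lower. Of 136 auxin genes 4 rose and 0 fell, with a median log2 change of 0.05. Of these, 2 are SAUR genes, small auxin-induced RNAs tied to cell expansion: Jcr4S08783.10 rose from 1.89 and 1.72 to 4.23 and 4.17 CPM (adjusted p = 0.0462) and Jcr4S00261.60 from 42.8 and 37.7 to 77.1 and 98.1 CPM (adjusted p = 0.0465). The auxin-responsive gene Jcr4S17365.20 rose from 12.3 and 10.5 to 19.5 and 30.6 CPM (adjusted p = 0.0462), and the fourth, auxin-induced in root cultures protein 12 (Jcr4S26200.10), from 14.8 and 11.9 to 21.5 and 25.9 CPM (adjusted p = 0.0471). In the brassinosteroid list 1 of 32 rose and 0 fell (median 0.17), the BRI1-associated receptor kinase gene Jcr4S01851.10, from 3.10 and 2.42 to 5.92 and 7.73 CPM (adjusted p = 0.0409). It was also the riser of the receptor kinase list, where 1 of 174 rose and 1 fell (median 0.05), the latter a cysteine-rich receptor-like kinase (Jcr4S04533.30), from 11.45 and 11.3 to 6.30 and 4.24 CPM (adjusted p = 0.0495). In the abscisic acid list 0 of 12 rose and 1 fell (median 0.01), zeaxanthin epoxidase (Jcr4S05819.20), which makes precursors of abscisic acid and acts in the xanthophyll cycle, from 94.0 and 105 to 56.8 and 60.4 CPM (log2 change -0.76 ± 0.14, adjusted p = 0.0409). Gibberellin genes gave 0 calls of 69 (median 0.21), the smallest p being that of a gibberellin 3-beta-hydroxylase (Jcr4S00062.140) at 1.55 and 2.30 CPM, then at 4.40 and 3.98 CPM (adjusted p = 0.0592). Cytokinin genes gave 0 of 8 (median 0.06), the smallest p being that of cytokinin dehydrogenase 3 (Jcr4S09774.30), which degrades the hormone, at 4.85 and 9.16 CPM, then at 2.51 and 1.41 CPM (adjusted p = 0.0580).

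In 6 lists of transcription factors 1 gene was called, where 0.927% of all tested genes were. Of 58 homeobox genes 1 rose and 0 fell (median 0.20), homeobox protein 20 (Jcr4S00115.240), from 22.6 and 17.8 to 33.8 and 34.7 CPM (log2 change 0.76 ± 0.14, adjusted p = 0.0409). WRKY factors gave 0 calls of 49 with edgeR (median -0.02), NAC factors 0 of 65 (median 0.06), MYB factors 0 of 76 (median 0.16), bHLH factors 0 of 39 (median 0.02), and ethylene, ERF and DREB genes 0 of 59 (median -0.01). In the WRKY family the smallest p belonged to WRKY 26 (Jcr4S00602.120), at 10.7 and 9.70 CPM, then at 16.8 CPM in both (adjusted p = 0.0755). In the MYB family it was an R2R3 factor (Jcr4S06895.10), at 30.1 and 28.4 CPM, then at 11.4 and 16.2 CPM (adjusted p = 0.0737), beside 3.77 and 3.08 CPM at day 0. The NAC gene with the smallest p (Jcr4S11673.20) was rare, at 0.250 and 0.302 CPM, then at 0.800 and 1.41 CPM (adjusted p = 0.0775). The bHLH gene (Jcr4S00491.90) was at 76.3 and 69.1 CPM, then at 56.7 and 50.5 CPM (adjusted p = 0.0927), and the ethylene-responsive gene (Jcr4S00001.70) at 3.39 and 2.84 CPM, then at 5.14 and 5.04 CPM (adjusted p = 0.0875).

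Calls in the detoxification and stress lists are to be read beside 0.338% of all tested genes called higher and 0.589% called lower. Of 136 cytochrome P450 genes, a large family of oxidases, 3 rose and 0 fell (median log2 change 0.18). Jcr4S00784.70 rose from 1.16 and 3.07 to 8.76 and 9.40 CPM (log2 change 2.10 ± 0.36, adjusted p = 0.0385), Jcr4S01749.50 from 1.39 and 1.79 to 3.73 and 5.70 CPM (adjusted p = 0.0350) and Jcr4S05850.20 from 49.2 and 45.0 to 75.3 and 69.7 CPM (adjusted p = 0.0409). Glutathione transferases, which tag toxic compounds, split, with 1 of 30 higher and 2 lower (median 0.14). The tau 19 gene (Jcr4S05368.20) rose from 11.6 and 17.5 to 34.8 and 42.4 CPM (adjusted p = 0.0416), while the t1-like gene Jcr4S09368.10 fell from 6.10 and 4.79 to 1.03 and 1.39 CPM (log2 change -2.17 ± 0.31, adjusted p = 0.0317) and Jcr4S00042.90 from 0.592 and 0.628 to 0.168 and 0.118 CPM (adjusted p = 0.0495). Among 80 heat shock genes 2 rose and 0 fell (median -0.01), both at low levels. A class I small heat shock gene (Jcr4S14146.30) rose from 1.5 and 2.14 to 5.39 and 8.29 CPM (adjusted p = 0.0471), and Jcr4S00535.40 from 0.319 and 0.558 to 2.06 and 2.05 CPM (adjusted p = 0.0350). In the antioxidant list 1 of 105 rose and 0 fell (median -0.03), glutaredoxin 2 (Jcr4S00335.90), from 14.6 and 15.8 to 31.9 and 28.8 CPM (adjusted p = 0.0409). Disease resistance genes gave 1 riser and 0 falls in 140 (median -0.07), Jcr4S10365.20, from 21.4 and 20.5 to 34.4 and 39.3 CPM (adjusted p = 0.0495). Calls were 0 among 16 LEA and dehydrin genes, which protect cells during drying (median 0.31). There the smallest p was that of Jcr4S10656.10, at 22.4 and 16.5 CPM, then at 31.4 and 28.9 CPM (adjusted p = 0.103).

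Lists of surface, glycosylation and protein turnover genes had 0 calls with edgeR, beside 0.927% of all tested genes. Among 108 glucosyltransferases 0 were called (median log2 change 0.26), the smallest p being that of UDP-glycosyltransferase 3 (Jcr4S10610.10), at 50.6 and 48.4 CPM, then at 76.6 and 70.6 CPM (adjusted p = 0.0525). Among 34 genes of cuticle, wax and GDSL lipases 0 were called (median 0.19), and an eceriferum 1 fragment (Jcr4S21390.10), of a gene for wax alkanes, was near the detection limit at 0.0683 and 0.0930 CPM, then 0.337 and 0.542 CPM (adjusted p = 0.0682). In the proteasome and autophagy list 0 of 51 were called (median -0.02). Its smallest p, for the autophagy 18b gene Jcr4S00212.20, rested on day 13 replicate 1 alone, at 24.3 CPM against 3.56 CPM in replicate 2 and 3.60 and 2.80 CPM late (adjusted p = 0.114).

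Transport and nutrient lists held 4 called genes, at shares to be read beside the 0.927% of all tested genes. Of 26 aquaporins 1 rose and 0 fell (median log2 change 0.14), the NIP1.1 gene Jcr4S00197.140, of a branch that carries small solutes, from 14.5 and 14.6 to 29.9 and 35.9 CPM (log2 change 1.18 ± 0.19, adjusted p = 0.0350). In the potassium and calcium list 2 of 225 rose and 0 fell (median 0.05). They were calmodulin (Jcr4S00504.180), a calcium sensor, from 114 and 136 to 228 and 241 CPM (adjusted p = 0.0409), and a calcium-dependent phosphotriesterase (Jcr4S01591.60), from 12.5 and 9.91 to 19.2 and 22.9 CPM (adjusted p = 0.0495). In the iron and metal list 0 of 68 rose and 1 fell (median 0.10), a copper-transporting ATPase (Jcr4S02312.40), from 41.7 and 35.5 to 19.3 and 19 CPM (log2 change -1.01 ± 0.16, adjusted p = 0.0350). The other lists of this kind had 0 calls. Sugar transporters (29, median -0.10) had their smallest p in a polyol/monosaccharide transporter (Jcr4S00407.10) at 2.25 and 2.12 CPM, then at 0.842 and 0.778 CPM (adjusted p = 0.0580). Nitrogen genes (34, median 0.07) had it in glutamine synthetase (Jcr4S00007.130), which fixes ammonium, at 443 and 403 CPM, then at 257 and 277 CPM (adjusted p = 0.0621). Sulfate genes (17, median 0.04) had it in an adenosine phosphosulfate kinase (Jcr4S03986.40) at 39.8 and 52.2 CPM, then at 30.5 and 33.6 CPM (adjusted p = 0.0853). Phosphate genes (17, median -0.03) had it in a purple acid phosphatase (Jcr4S01030.40) at 90.5 and 103 CPM, then at 81.8 and 79.7 CPM (adjusted p = 0.302). For raffinose, trehalose and proline (29, median -0.17) it fell on a kinase that the list's wording took in by its name, Jcr4S02360.60, at 1.5 and 1.33 CPM, then at 0.653 and 0.565 CPM (adjusted p = 0.0755).

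The watered roots were sampled at the same times, in other libraries, and moved far more. Between day 13 and day 49-52, 9530 of 24770 genes (38.5%) passed in root, 4766 higher and 4764 lower, in a fit over all 22 libraries. The late root libraries had reads on 40952 and 38267 gene models, against 34025 and 34226 at day 13, and the part of this in the root changes was not tested. Of the 203 genes called in leaf, 45 were also called in root in the same direction (22.2% of the leaf calls, 0.472% of the root calls), 23 of them higher and 22 lower. In the opposite direction there were 49 (24.1% of the leaf calls, 0.514% of the root calls), 21 of them higher in leaf and 28 lower. The difference between the leaf and the root change passed the test for 5694 genes (23%), for 2972 with the leaf change above the root change and for 2722 below it. Among the 203 leaf genes it passed for 128, or 63.1%. These genes were picked by their leaf change, which is part of the difference tested. A share above that of all genes is partly set by this choice.

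Several leaf genes had their own course in root. The rhicadhesin receptor gene was at 70.0 and 103 CPM at day 13 and at 182 and 352 CPM late in root, and its leaf and root changes were not distinguished by the test (adjusted p = 0.120). Aquaporin NIP1.1 stood at 6.24 and 6.73 CPM, then at 18.1 and 17.1 CPM in root, and calmodulin at 102 and 80.0 CPM, then at 186 and 161 CPM, both called higher in root as well as in leaf. By contrast, "mta sah" gene Jcr4S09196.10 was at 18.2 and 25.4 CPM at day 13 and at 495 and 430 CPM late in root, the reverse of its fall in leaf (leaf change minus root change -6.21, adjusted p = 0.00039). Alpha-glucan phosphorylase was rare in root, at 0.959 and 1.41 CPM, then at 5.29 and 5.95 CPM (difference -3.26). The lipid-transfer type gene Jcr4S00065.160 fell in root from 162 and 519 to 30.8 and 13.2 CPM while it rose in leaf (difference 5.59). Ornithine decarboxylase-like gene Jcr4S04145.10 was at 4.36 and 14.9 CPM, then at 13.5 and 16.1 CPM in root, without a called change there, and its leaf change lay 2.86 log2 units below the root change (adjusted p = 0.0056).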

How the data were processed

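RNA libraries made with a kit that keeps no strand were read as single 50 bp ends, per the labels' protocols. The authors deposited raw read counts per gene model, and a table of RPKM values. The deposited RPKM has a lowest value of 1.0 and nearly equal column sums, so a further normalisation was applied that no source used here describes. No source used here names the aligner, counter, genome build or annotation.

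Counts of genes with at least 10 reads in at least 2 of the 4 libraries were scaled by TMM and fitted with edgeR 4.0.16 (R 4.3.3, robust quasi-likelihood test) over the 12 leaf libraries in 6 groups, which left 6 residual degrees of freedom. Calls used a Benjamini-Hochberg adjusted p of 0.05. The standard error is the size of the log2 change over the square root of the F statistic. CPM values use TMM-scaled totals, and a mean over 2 libraries has no other replicate check. Leaf and root changes were compared in 1 fit over all 22 libraries, with 11 residual degrees of freedom and at least 10 reads in 2 of the 8 watered libraries. The script was tested on simulated data. Alternatives used DESeq2 1.42.0, and limma 3.58.1 on log2(RPKM + 1) and log2(RPKM + 0.1).

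Lists were built from words in the deposited descriptions, some of which are cut short. Named genes are the 12 largest rises and 12 largest falls among described called genes of at least 5 CPM in the higher group, up to 3 called members of each list by smallest p or else the member with the smallest p, and the 3 most abundant called genes. Others are said to be chosen after their values were seen. The genes and lists were chosen with earlier results of these data known.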

Additional observations from a re-analysis of the deposited data

Results flagged for a closer look

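Between day 13 and day 49-52, the change in watered leaf differed from the change in watered root for 5694 genes (edgeR quasi-likelihood test of the difference, adjusted p under 0.05), among them the called genes named here. The late root libraries had reads on more gene models than the early ones, and the part of this in the differences was not tested.

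For 23 genes the leaf change lay above the root change, in log2 units. The difference was 5.59 for lipid-transfer type (Jcr4S00065.160), 5.23 for major latex (Jcr4S03901.50), 3.53 for glutathione s-transferase tau 19 (Jcr4S05368.20) and 3.14 for xyloglucan endotransglucosylase protein 33 (Jcr4S01936.90). Next came 3.07 for calcium-dependent phosphotriesterase superfamily (Jcr4S01591.60), 2.69 for peroxidase 52 (Jcr4S00925.60), 2.67 for alcohol dehydrogenase (Jcr4S06463.10) and 2.67 for auxin-induced in root cultures protein 12 (Jcr4S26200.10). These were followed by 2.67 for saur (Jcr4S00261.60), 2.64 for Pectinesterase inhibitor (Jcr4S05937.20), 2.55 for cell wall vacuolar inhibitor of fructosidase 2 (Jcr4S04028.40) and 2.42 for major latex (Jcr4S02756.20). It stood at 2.38 for patatin t5 (Jcr4S00574.100), 2.37 for catalytic (Jcr4S14014.20), 2.16 for auxin-responsive protein (Jcr4S17365.20) and 2.11 for homeobox protein 20 (Jcr4S00115.240). Then came 1.89 for saur (Jcr4S08783.10), 1.64 for 60s ribosome subunit biogenesis protein (Jcr4S02910.20), 1.58 for glutaredoxin 2 (Jcr4S00335.90) and 1.41 for germin-like protein subfamily 1 member 6 (Jcr4S03500.20). Smaller differences were 1.30 for peroxidase 12 (Jcr4S06050.30), 1.20 for disease resistance (Jcr4S10365.20) and 0.69 for cyclin (Jcr4S01214.80). Among these genes, Jcr4S01591.60 was rare in root, at 0.372 and 0.481 CPM, then at 0.0951 and 0.0916 CPM. So was Jcr4S14014.20, at 0.587 and 0.566 CPM, then at 0.514 and 0.435 CPM.

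For 27 genes the leaf change lay below the root change, in log2 units. The difference was -6.21 for "mta sah" (Jcr4S09196.10), -5.55 for Chlorophyllase-1 (Jcr4S00824.60), -4.59 for "anthocyanin 5-aromatic" (Jcr4S05289.30) and -3.51 for glutathione s-transferase t1-like (Jcr4S09368.10). Next came -3.34 for ornithine decarboxylase-like (Jcr4S08812.10), -3.26 for alpha-glucan phosphorylase (Jcr4S01247.10), -2.86 for ornithine decarboxylase-like (Jcr4S04145.10) and -2.83 for ndh-dependent cyclic electron flow 1 (Jcr4S00458.130). These were followed by -2.28 for neutral alkaline invertase (Jcr4S00014.20), -2.23 for triacylglycerol lipase (Jcr4S02305.30), -2.14 for transporter (Jcr4S01217.90) and -2.11 for plastid jasmonates zim-domain protein (Jcr4S01186.90). It stood at -2.07 for glutathione s-transferase (Jcr4S00042.90), -1.75 for chlorophyllase (Jcr4S00672.40), -1.68 for 4-alpha-glucanotransferase -related (Jcr4S16140.10) and -1.68 for phosphoglucan phosphatase (Jcr4S16434.10). Then came -1.63 for Rubisco large subunit n- (Jcr4S13825.20), -1.60 for floral homeotic protein (Jcr4S00717.90), -1.53 for xyloglucan endotransglucosylase protein 2 (Jcr4S09899.10) and -1.50 for copper-transporting atpase (Jcr4S02312.40). Smaller differences were -1.30 for protein translocase secy (Jcr4S07089.40), -1.29 for disproportionating enzyme 2 (Jcr4S07600.20), -1.26 for cysteine-rich rlk (receptor-like protein kinase) 8 (Jcr4S04533.30) and -1.07 for rna polymerase sigma factor (Jcr4S02875.10). The rest were -0.99 for sucrose-6f-phosphate phosphohydrolase (Jcr4S00505.30), -0.72 for zeaxanthin epoxidase (Jcr4S05819.20) and -0.69 for b-type cell cycle switch protein ccs52b (Jcr4S00081.40).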

How the results depend on the processing

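No named gene changed sign under any setting, which is largely fixed in advance for called genes, whose groups do not overlap. The balance of higher and lower calls did change. Against 74 genes higher and 129 lower, DESeq2 called 765 and 809, a fit without the severe drought libraries 270 and 382, no filter on low counts 149 and 146, limma on log2(RPKM + 1) 132 and 126 and on log2(RPKM + 0.1) 122 and 128, edgeR's own filter 58 and 61, and the 4 libraries alone 0 and 0. Leaving out 1 library gave 6 to 589 higher and 25 to 217 lower, with more higher than lower only without day 49-52 replicate 1 (589 and 217). For leaf against root change, 2972 and 2722, the 8 watered libraries alone gave 1672 and 1418, and leaving out 1 library 1743 to 3497 and 1533 to 3941, with the balance turned only without day 13 root replicate 1 (3497 and 3941). The causes were not tested.

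Replicate numbers are shared between groups, but same-numbered libraries did not steadily deviate together (correlation 0.181 between the groups compared, -0.275 to 0.285 over 15 pairs of leaf groups). The reported fit therefore does not pair them. Correlations across all genes cannot exclude a batch shared by some genes. With a replicate block 4 genes were higher and 13 lower, with 72 of the 83 named called genes no longer called, and 2827 and 2536 for leaf against root change. With 2 libraries a group, a missed call does not show that a gene was equal.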
